A study of Mus musculus with 9 samples.

Results

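Transcripts of 10 proteins that platelets store in granules or use in coagulation were followed in sorted mouse hematopoietic stem cells (HSCs). The 10 genes, *Pf4*, *Ppbp*, *Vwf*, *Thbs1*, *Mmrn1*, *F5*, *F13a1*, *Pros1*, *Sparc* and *Serpine2*, were chosen by name from the 56748 genes of the count table, and each was counted in each library. The libraries came from bone marrow HSCs of C57BL/6 background mice, all female. HSCs of young mice (yHSCs) were from mice of 6 to 10 weeks. Pre-aged HSCs (paHSCs), from mice of 14 to 16 months, were divided by surface P-selectin (encoded by *Selp*) into Selp low and Selp high fractions, with 3 libraries per group. The gate was Lin- Sca1+ c-Kit+ CD48- CD150+ for all of them, no genetic change or drug treatment is named for any group, and whether an RNA sample pooled several mice is not given in the sources used here.

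Platelets and their parent cells, megakaryocytes, keep alpha granules filled with chemokines, adhesive proteins and clotting factors, and release them on activation; P-selectin itself lies in the alpha granule membrane and moves to the surface on release. A subset of mouse HSCs is known to carry transcripts of this program, *Vwf* and *Pf4* among them, and to give rise preferentially to platelets. Pf4 and Ppbp are CXC chemokines. Vwf, Thbs1 and Mmrn1 are large adhesive glycoproteins, of which Mmrn1 binds factor V in the granule. F5 is the cofactor that speeds thrombin formation, F13a1 is the subunit that cross-links fibrin, Pros1 (protein S) is a cofactor of activated protein C and so limits coagulation, Serpine2 inhibits thrombin, and Sparc is a collagen-binding matrix protein.

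Each library held between 24866975 and 35375310 counts on genes. Levels are given as CPM, counts scaled to a common library size with TMM factors, and as FPKM, which also divides by the gene length of the table, where genes are compared with each other. *Selp*, the gene of the sorted protein, was at 20.6, 30.0 and 23.2 CPM in yHSCs, 109, 29.4 and 93.4 CPM in Selp low paHSCs, and 652, 266 and 265 CPM in Selp high paHSCs (replicates 1 to 3), so the Selp high libraries lay above the rest. Transcripts of other cells were present. A list of 10 neutrophil markers summed to 213494 CPM in Selp low replicate 3 and to between 548 and 65063 CPM elsewhere. A list of 10 B cell markers summed to 105966 CPM in Selp low replicate 2 and to between 91.5 and 5495 CPM elsewhere. The sums of 10 erythroid markers were between 1538 and 3334 CPM in Selp low and 874 and 1385 CPM in Selp high paHSCs, without overlap. In yHSCs they ran from 333 to 2800 CPM. The 10 HSC markers were detected in all libraries and summed to between 1038 and 2296 CPM in yHSCs, 820 and 1507 CPM in Selp low and 2176 and 3123 CPM in Selp high paHSCs. Between the fractions, 9 of the 10 had a positive log2 fold change, with a median of 1.51. *Cd48*, which the gate excludes, had a median of 175 CPM (22.7 to 310) in Selp low paHSCs against 15.9 CPM (11.6 to 38.7) in Selp high paHSCs, so the fractions overlapped. *Flt3* and *Cd34*, which the gate given above does not use, were at 367 ± 181 and 734 ± 214 CPM in yHSCs (SD, n = 3). They were at 18.5 ± 20.8 and 79.4 ± 78.9 CPM in Selp low and 6.28 ± 1.80 and 75.5 ± 11.9 CPM in Selp high paHSCs. A list of 12 megakaryocyte and platelet surface or structural markers summed to between 105 and 189 CPM in yHSCs, to 140, 529 and 701 CPM in Selp low paHSCs and to 1075, 5414 and 1830 CPM in Selp high paHSCs. The most abundant of these by mean over the 9 libraries was *Itga2b*. *Gp1bb* was at 0 in yHSCs and at most 0.516 CPM in any library. Endothelial cells also make several of the 10 proteins: 10 endothelial markers summed to between 247 and 516 CPM in yHSCs, 135 and 277 CPM in Selp low and 548 and 893 CPM in Selp high paHSCs, and all 10 had a positive log2 fold change between the fractions, with a median of 1.53. The most abundant of these by mean over the 9 libraries were *Esam* and *Tie1*. *Esam* was at 80.5 ± 30.4 CPM in Selp low and 303 ± 78.1 CPM in Selp high paHSCs (SD, n = 3). *Tie1* was at 38.6 ± 17.5 and 181 ± 11.9 CPM. *Cdh5*, the least abundant, was at most 1.64 CPM in any library. The sums of 10 monocyte and macrophage markers, between 110 and 363 CPM, and of 10 stromal and bone markers, between 13.8 and 122 CPM, overlapped between the groups. The megakaryocyte sum was thus higher in each Selp high library than in the other 6. The endothelial sum was also higher there, at 893, 748 and 548 CPM in replicates 1, 2 and 3. Relative to yHSCs, 0 of the 10 endothelial markers had a positive fold change in Selp low paHSCs (median -0.72 on the log2 scale). Whether transcripts of the endothelial list came from endothelial cells or from the HSCs themselves was not tested. These values therefore cannot show the part of endothelial cells in the results. The part of any other cell was not tested either. In bulk libraries, more cells that express a gene and more RNA per cell cannot be told apart.

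Promoter sequences are shown for 4 genes because they form the contrasting pairs of the results: *Ppbp* and *Pf4*, neighbors in the genome whose levels came apart, and *Mmrn1* and *Pros1*, on different chromosomes and the most even of the 10 within both paHSC fractions. RefSeq promoters (GRCm38.p6) matched 8 of the 10 genes, with 9 promoters. The 250 bases upstream of each start are printed 5′ to 3′ on the gene's strand, which is the plus strand in all 4: chr5:90768268-90768517 (*Ppbp*), chr5:90772185-90772434 (*Pf4*), chr6:60944067-60944316 (*Mmrn1*) and chr16:62854057-62854306 (*Pros1*). Capitals mark words of transcription factor families that act in megakaryocytes, searched on both strands. The words of the GATA family were AGATAA and also TGATAA. Those of the RUNX family were TGTGGT and also TGCGGT. For ETS factors they were AGGAAG and also CGGAAG, and for AP-1 and NF-E2 they were TGAGTCA and its reverse complement, TGACTCA.
Ppbp: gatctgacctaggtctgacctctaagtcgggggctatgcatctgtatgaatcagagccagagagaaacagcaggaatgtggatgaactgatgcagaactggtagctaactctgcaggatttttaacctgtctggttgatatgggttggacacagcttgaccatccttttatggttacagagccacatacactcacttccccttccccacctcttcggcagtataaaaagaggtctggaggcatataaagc
Pf4: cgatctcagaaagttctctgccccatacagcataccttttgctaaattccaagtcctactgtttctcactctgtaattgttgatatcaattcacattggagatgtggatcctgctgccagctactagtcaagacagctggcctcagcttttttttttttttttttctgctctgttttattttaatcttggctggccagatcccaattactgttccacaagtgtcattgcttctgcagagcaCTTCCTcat
Mmrn1: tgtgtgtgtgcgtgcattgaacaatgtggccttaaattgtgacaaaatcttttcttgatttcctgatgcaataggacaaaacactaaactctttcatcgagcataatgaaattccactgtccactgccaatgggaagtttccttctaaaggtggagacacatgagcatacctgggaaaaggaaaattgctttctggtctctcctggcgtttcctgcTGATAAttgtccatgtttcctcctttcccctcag
Pros1: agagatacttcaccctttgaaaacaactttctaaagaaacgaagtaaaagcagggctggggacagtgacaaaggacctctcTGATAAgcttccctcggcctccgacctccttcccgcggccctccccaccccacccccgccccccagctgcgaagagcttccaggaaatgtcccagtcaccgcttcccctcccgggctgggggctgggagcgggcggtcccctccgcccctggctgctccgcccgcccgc

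The *Mmrn1* and *Pros1* windows each held TGATAA, at 34 and 169 bases before the start, and the *Pf4* window held AGGAAG on the opposite strand, 9 bases before it. None of the words was in the *Ppbp* window. A GATA word was in 2 of the 9 promoters of the 10 genes and in 16.6% of all 32851 promoters, a RUNX word in 1 of 9 and 18.6%, an ETS word in 5 of 9 and 39.2%, and an AP-1 or NF-E2 word in 0 of 9 and 4.46%. The starts are those of the RefSeq promoters, and whether they are also the starts of the counted genes was not tested. The matches describe letters only.

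Together the 10 genes took between 0.0377% and 0.167% of all counts in the yHSC and Selp low libraries, and 0.177%, 0.649% and 0.393% in Selp high replicates 1, 2 and 3. By this share of raw counts, all 3 Selp high libraries were above the other 6, with replicate 1 close to the highest Selp low library. In Selp low replicates 2 and 3, the top 10 genes of the whole library took 44.8% and 20.9% of counts. The TMM factors of these libraries were 0.545 and 0.785, against 1.09 in Selp high replicate 1. Summed as CPM, the 10 genes were lower in Selp high replicate 1 than in Selp low replicate 3, so the fractions overlapped. Per length, *Pf4* was the most abundant of the 10 in 7 of 9 libraries. The exceptions were yHSC replicate 2, led by *Thbs1*, and Selp high replicate 1, led by *Ppbp*. In yHSCs the order by mean FPKM began with *Pf4* (31.8 ± 3.89, SD, n = 3), *Thbs1* (27.4 ± 31.5) and *Mmrn1* (26.2 ± 2.29), whose ranges overlapped, and the other 7 lay below the range of *Mmrn1*. In Selp low paHSCs only *Pf4* was set apart from the next gene, with 1212 ± 1026 FPKM against 27.1 ± 10.5 for *Mmrn1*. In Selp high paHSCs *Pf4* (1996 ± 1637 FPKM), *Ppbp* (489 ± 544) and *Mmrn1* (122 ± 17.0) led, with neighbors overlapping, and *Mmrn1* was clear of *Thbs1* (31.4 ± 27.6). Further down, genes next to each other in the order overlapped in each group.

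**Figure D1:**
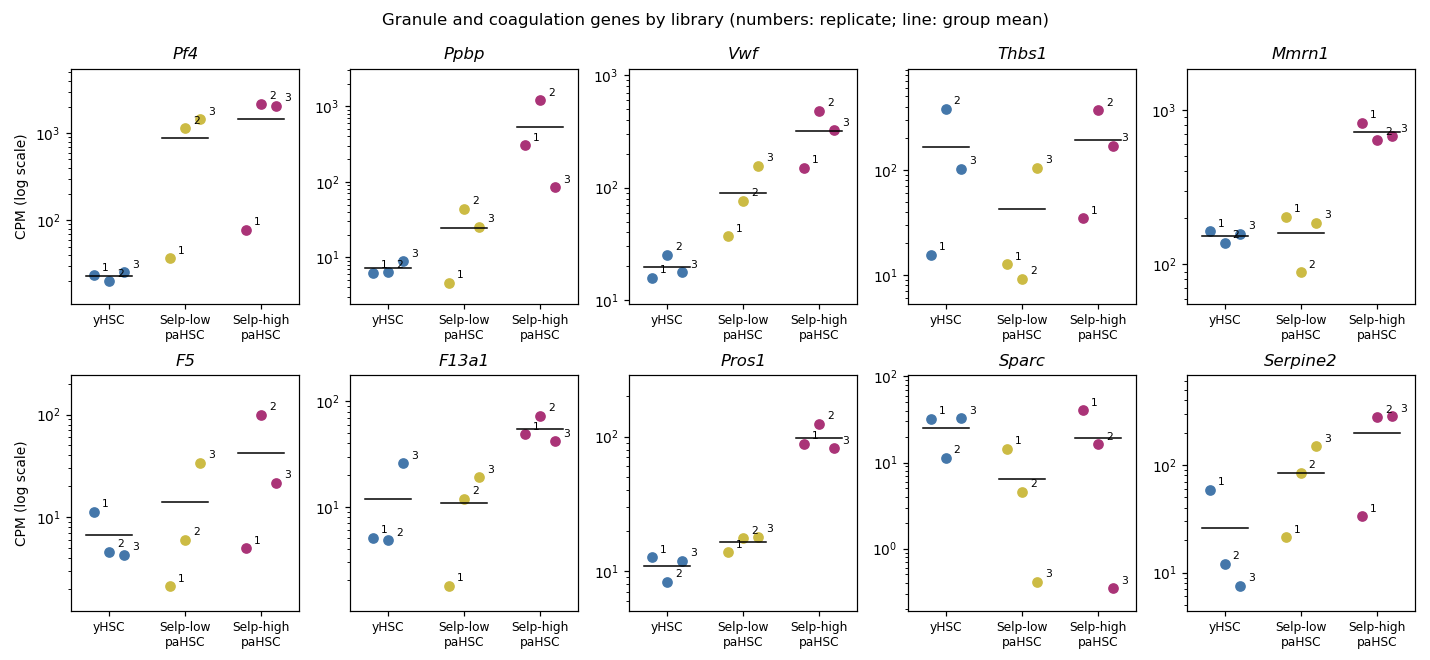
CPM (log axis) of each of the 10 genes in the 9 libraries, by group, with the replicate number beside each point and the group mean as a line. *Mmrn1* and *Pros1* form tight groups with Selp high paHSCs on top, *Pf4* and *Serpine2* have replicate 1 of both paHSC fractions far below replicates 2 and 3, and *Sparc* is lowest in replicate 3 of both fractions.

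The chemokines gave the widest changes of the 10 genes for Selp high paHSCs over yHSCs. *Pf4* (chr5:90920294-90921242 in mm39, the build of the count table) was at 23.5, 19.9 and 25.4 CPM in yHSCs, at 36.7, 1145 and 1439.7 CPM in Selp low paHSCs and at 78.2, 2185 and 2055 CPM in Selp high paHSCs. Every paHSC library was above every yHSC library. Within each paHSC fraction, however, replicate 1 was far below the other two, a range of 39.2-fold in Selp low and 27.9-fold in Selp high paHSCs. The ratio of Selp high to Selp low at the same replicate number was much steadier, 2.13, 1.91 and 1.43. The edgeR log2 fold change was 5.94 (SE 1.14, adjusted p = 0.149) for Selp high paHSCs over yHSCs, 5.28 (SE 1.21, adjusted p = 0.332) for Selp low paHSCs over yHSCs and 0.72 (SE 1.38, adjusted p = 0.865) between the fractions. With the replicate number as a block the last became 0.84 with an SE of 0.27 and an adjusted p of 0.204. DESeq2 with the block gave an adjusted p of 0.0256, but the log2 fold change was under 1.

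*Ppbp* lies next to *Pf4* on the same strand (chr5:90916377-90917922 in mm39). Its level was 6.21, 6.28 and 8.87 CPM in yHSCs, 4.56, 44.2 and 25.5 CPM in Selp low paHSCs and 306, 1198 and 84.4 CPM in Selp high paHSCs. The Selp high libraries were above all others, while Selp low replicate 1 was under every yHSC library. By edgeR the log2 fold change was 4.42 (SE 1.21, adjusted p = 0.338) between the fractions, from 2.98 without Selp high replicate 2 to 5.21 without Selp low replicate 2, and 6.21 (SE 1.01, adjusted p = 0.0993) for Selp high paHSCs over yHSCs. Selp low paHSCs over yHSCs gave 1.85 (SE 0.74, adjusted p = 0.418).

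The neighbors did not keep a fixed proportion. *Pf4* had 3.79, 3.17 and 2.87 counts per count of *Ppbp* in yHSCs, 8.04, 25.9 and 56.5 in Selp low paHSCs and 0.255, 1.82 and 24.3 in Selp high paHSCs. At each replicate number the proportion was higher in the Selp low than in the Selp high library. Other CXC genes of the cluster were far lower or did not follow: *Cxcl5*, a neutrophil attractant, had mean levels of 0.601 ± 0.285, 1.98 ± 0.902 and 9.07 ± 9.96 CPM (SD, n = 3) in the yHSC, Selp low and Selp high groups, and *Cxcl3* stayed between 0.197 and 4.64 CPM. *Cxcl2* was at 188 ± 121, 57.3 ± 55.8 and 71.4 ± 76.6 CPM. *Cxcl1* was at most 3.23 CPM in any library, and *Cxcl15* was near 0.

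**Figure D2:**
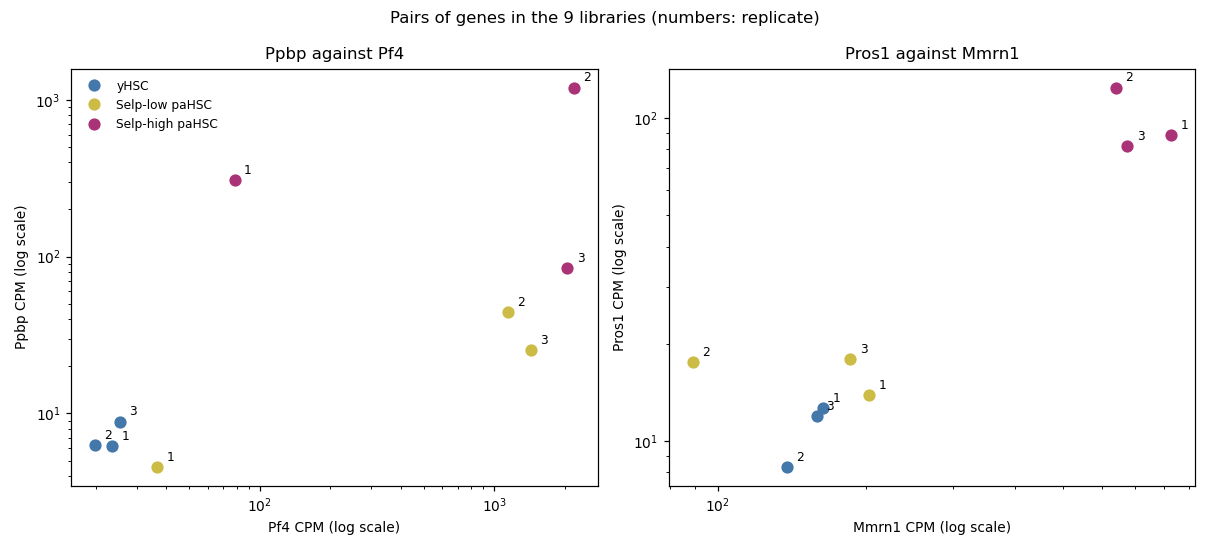
CPM of *Ppbp* against *Pf4* (left) and of *Pros1* against *Mmrn1* (right) in the 9 libraries, on log axes, with colors for the groups and replicate numbers beside the points. On the left, Selp high replicates 1 and 3 differ in opposite directions for the neighbors, and on the right the 3 Selp high libraries lie together at the top.

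Among the adhesive proteins, *Mmrn1* was the most even. It was at 164, 138 and 159 CPM in yHSCs, 203, 88.9 and 186 CPM in Selp low paHSCs and 829, 641 and 676 CPM in Selp high paHSCs. The Selp high libraries were clear of all others and spanned 1.29-fold, and Selp low paHSCs lay on both sides of yHSCs. The edgeR log2 fold change was 2.19 (SE 0.23, adjusted p = 0.0251) over yHSCs and 2.16 (SE 0.38, adjusted p = 0.338) over Selp low paHSCs. Between Selp low paHSCs and yHSCs it was 0.09 (SE 0.34, adjusted p = 0.99).

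*Vwf*, the carrier of factor VIII and a ligand of platelet receptors, was graded over the groups. It was at 15.7, 25.3 and 17.6 CPM in yHSCs, 36.9, 76.4 and 156 CPM in Selp low paHSCs and 151, 482 and 323 CPM in Selp high paHSCs. Both fractions were above yHSCs in all libraries, and the fractions overlapped only through Selp low replicate 3 and Selp high replicate 1. The edgeR log2 fold change was 3.99 (SE 0.49, adjusted p = 0.0401) for Selp high paHSCs over yHSCs, 2.23 (SE 0.52, adjusted p = 0.332) for Selp low paHSCs over yHSCs and 1.83 (SE 0.62, adjusted p = 0.346) between the fractions.

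*Thbs1* overlapped between all 3 groups. It was at 15.7, 382 and 102 CPM in yHSCs, 12.6, 9.18 and 105 CPM in Selp low paHSCs and 34.6, 368 and 169 CPM in Selp high paHSCs. The yHSCs alone spanned 24.4-fold, and at equal replicate numbers the Selp high library was 2.74, 40.1 and 1.61 times the Selp low one. The log2 fold changes by edgeR were 2.18 (SE 1.15, adjusted p = 0.49) between the fractions, 0.16 (SE 1.12, adjusted p = 0.999) for Selp high paHSCs over yHSCs and -1.94 (SE 1.28, adjusted p = 0.66) for Selp low paHSCs over yHSCs.

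Of the coagulation factors, *F13a1* was at 5.09, 4.80 and 25.8 CPM in yHSCs, 1.77, 11.9 and 19.0 CPM in Selp low paHSCs and 48.7, 73.3 and 42.0 CPM in Selp high paHSCs. The Selp high libraries were above all others. The edgeR log2 fold change was 2.32 (SE 0.77, adjusted p = 0.338) over Selp low paHSCs and 2.23 (SE 0.67, adjusted p = 0.393) over yHSCs, and it was -0.07 (SE 0.95, adjusted p = 0.999) for Selp low paHSCs over yHSCs. *F5* was at 11.4, 4.59 and 4.30 CPM in yHSCs, 2.13, 6.07 and 33.9 CPM in Selp low paHSCs and 5.01, 99.1 and 21.7 CPM in Selp high paHSCs, so that all groups overlapped. Its edgeR log2 fold change between the fractions was 1.58 (SE 1.27, adjusted p = 0.645), and without Selp high replicate 2 it was -0.08. Over yHSCs it was 2.60 (SE 1.02, adjusted p = 0.603) in Selp high and 1.04 (SE 0.97, adjusted p = 0.814) in Selp low paHSCs. An antisense gene, *Gm16548*, overlaps *F5* and had between 4 and 52 counts, up to 40.0% of the *F5* count in one library, and *Gm49144* overlaps *F13a1* with 0 to 21 counts. Whether the counting used strand is not given in the sources used here.

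Of the inhibitors, *Pros1* separated the fractions most evenly. It was at 12.7, 8.33 and 11.96 CPM in yHSCs, 13.9, 17.6 and 18.0 CPM in Selp low paHSCs and 88.5, 124 and 82.0 CPM in Selp high paHSCs. The 3 groups did not overlap, with a small step from yHSCs to Selp low paHSCs and a larger one to Selp high paHSCs. At equal replicate numbers the Selp high library was 6.39, 7.06 and 4.55 times the Selp low one. By edgeR the log2 fold change was 3.14 (SE 0.32, adjusted p = 0.0209) over yHSCs and 2.57 (SE 0.28, adjusted p = 0.338) over Selp low paHSCs, and 0.62 (SE 0.30, adjusted p = 0.505) for Selp low paHSCs over yHSCs.

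*Serpine2* was at 58.7, 12.04 and 7.58 CPM in yHSCs, 21.2, 84.4 and 149 CPM in Selp low paHSCs and 33.3, 276 and 283 CPM in Selp high paHSCs. As with *Pf4*, replicate 1 was the lowest of each paHSC fraction, and the ratios at equal numbers were 1.57, 3.27 and 1.89. The edgeR log2 fold change was 2.85 (SE 1.03, adjusted p = 0.545) for Selp high paHSCs over yHSCs, 1.68 (SE 0.96, adjusted p = 0.588) for Selp low paHSCs over yHSCs and 1.22 (SE 0.91, adjusted p = 0.618) between the fractions.

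*Sparc* went another way. It was at 32.3, 11.3 and 32.8 CPM in yHSCs, 14.5, 4.55 and 0.413 CPM in Selp low paHSCs and 40.5, 16.2 and 0.344 CPM in Selp high paHSCs. Replicate 3 of both fractions held only 11 and 12 counts, while *Pf4* was high in both. The edgeR log2 fold change was 1.53 (SE 1.54, adjusted p = 0.719) between the fractions, -0.43 (SE 1.19, adjusted p = 0.999) for Selp high paHSCs over yHSCs and -1.91 (SE 1.08, adjusted p = 0.583) for Selp low paHSCs over yHSCs.

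**Figure D3:**
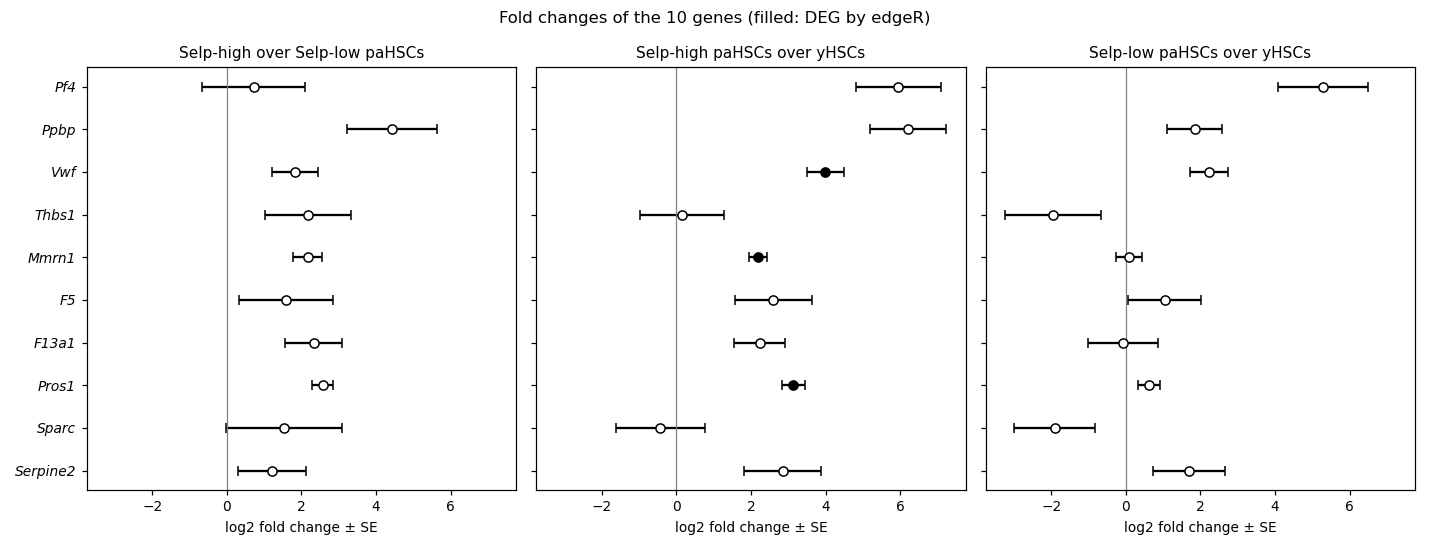
edgeR log2 fold change with its SE (bars) of each gene in the 3 comparisons, with filled points for genes that passed as DEGs. *Vwf*, *Mmrn1* and *Pros1* are filled for Selp high paHSCs over yHSCs, and none is filled in the other comparisons.

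DEGs were genes whose adjusted p did not exceed 0.05 and whose log2 fold change was 1 or more in size. The 10 genes were chosen with earlier results of these data known. The shares of all genes printed beside their counts are therefore a description and not a test of the set. When the fractions were compared, edgeR called 0 of the 10 genes, and of all 20370 genes tested it called 0% as higher. At an unadjusted p below 0.05, 5 of the 10 were higher, against 6.88% of all genes. DESeq2 called 3 (*Ppbp*, *Mmrn1* and *Pros1*, adjusted p = 0.0012, 0.00303 and 3.98e-06) as higher, against 0.748% of all genes. With the replicate number as a block, edgeR called 0 of 10 against 0.00491%, with 8 at an unadjusted p below 0.05 against 10.1%. DESeq2 with the block called 6, adding *Vwf*, *F13a1* and *Serpine2*, against 4.33%. The Selp high libraries lay above all Selp low libraries for 4 of the 10 (*Ppbp*, *Mmrn1*, *F13a1* and *Pros1*) and for 10.3% of all genes. At equal replicate numbers, 8 of the 10 were higher in Selp high in all 3 pairs, all but *F5* and *Sparc*, against 21.6% of all genes. The median log2 fold change of the 10 was 1.99, and over all genes it was -0.11. Without Selp low replicate 3, DESeq2 called 7 of the 10, in a fit that called 434 genes higher in all. That library was rich in neutrophil transcripts. It also had the largest share of the 10 genes in Selp low paHSCs (0.167%, against 0.0377% and 0.0809%). Why the calls changed was not tested. The other 5 omissions gave 3 or 4 of the 10, in fits that called 63 to 307 genes higher.

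For Selp high paHSCs over yHSCs, edgeR called 3 of the 10 as higher (*Vwf*, *Mmrn1* and *Pros1*), against 0.105% of all genes, and 8 were higher at an unadjusted p below 0.05, against 4.48%. The calls changed when a library was omitted: omitting yHSC replicate 1 left 1 edgeR call, omitting yHSC replicate 2 or 3 left 0, as did omitting replicate 2 or 3 of Selp high paHSCs, and omitting the first Selp high library left 3. Over all genes, edgeR called 12 as higher in the fit that left 1 call, 30 in the fit that left 3 and 0 otherwise. Over these 6 omissions the edgeR log2 fold changes stayed between 3.54 and 4.33 for *Vwf*, 2.07 and 2.27 for *Mmrn1* and 2.92 and 3.28 for *Pros1*. With any 1 library left out DESeq2 called between 5 and 7 of the 10, in fits that called 257 to 487 genes higher. With all libraries it called 6, adding *Pf4*, *Ppbp* and *F13a1* to the 3 of edgeR, against 1.75%. The same 6 had every Selp high library above every yHSC library, against 8.53% of all genes. The median log2 fold change was 2.72 for the 10 genes and -0.03 for all genes.

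For Selp low paHSCs over yHSCs, edgeR called 0 of the 10, against 0% of all genes, with 3 higher at an unadjusted p below 0.05 (*Pf4*, *Ppbp* and *Vwf*) against 7.11%. DESeq2 called *Pf4* and *Vwf* (adjusted p = 3.58e-05 and 0.0202), 2 of 10 against 1.99%. Omitting yHSC replicate 2 or 3, or replicate 2 of Selp low paHSCs, left 1 DESeq2 call. Omitting replicate 1 of Selp low paHSCs gave 3 higher and 1 lower (*Sparc*), omitting its replicate 3 gave 2 higher and 1 lower (*Thbs1*), and omitting yHSC replicate 1 gave 3 higher. Over all genes, these omissions gave 82 to 1805 higher and 15 to 705 lower by DESeq2. The libraries did not overlap for *Pf4*, *Vwf* and *Pros1*, 3 of 10 against 9.59%. The median log2 fold change was 0.83 for the 10 genes and 0.08 for all genes; the 10 genes gave 0.22 without Selp low replicate 3 and 0.35 by limma-voom. The comparisons with yHSCs share the same yHSC libraries.

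Lists of other genes of the same processes were followed in the same fits. Of 26 further granule cargo genes, 21 were tested between the fractions, 17 had a positive fold change with a list median of 1.20, 8 were higher at an unadjusted p below 0.05 (6.88% of all genes) and DESeq2 called 4 as higher (0.748% of all genes). *Pdgfa*, a growth factor of platelet granules, had the largest log2 fold change (3.70, SE 1.03), followed by *Ecm1* (3.57, SE 0.79) and *Ltbp1*, a binder of latent TGF-beta (3.38, SE 1.30), each with an edgeR adjusted p between 0.338 and 0.375. *Ltbp1* was at 6.62, 168 and 10.3 CPM in Selp high paHSCs, against 2.36 to 7.84 CPM in Selp low paHSCs, so the fractions overlapped. *Clu*, a secreted chaperone stored in granules, was at 10.5 ± 3.84 CPM in yHSCs, 65.3 ± 36.2 in Selp low and 490 ± 144 in Selp high paHSCs (SD, n = 3), and rose in Selp high paHSCs over yHSCs by edgeR (log2 fold change 5.50, SE 0.43, adjusted p = 0.0159). In that comparison *Vegfa* had a log2 fold change of -3.01 (SE 0.90, edgeR adjusted p = 0.389). For Selp low paHSCs over yHSCs the list median was -0.13, and *Ccl5*, a chemokine also made by T cells, had the largest value (3.20, SE 1.61, edgeR adjusted p = 0.525). Its Selp low libraries ran from 0.600 to 67.5 CPM with a median of 2.76 CPM, close to the yHSC median of 2.60 CPM.

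Genes of coagulation and fibrinolysis outside the 10 did not share a direction. Of 37 listed, 26 were tested between the fractions, 11 had a positive fold change, and the list median was -0.26. The widest were *Serpinb2*, an inhibitor of plasminogen activators (3.81, SE 1.05), *F9* (-2.79, SE 1.50) and *Serpinf2* (-2.06, SE 1.42). The edgeR adjusted p of these was between 0.338 and 0.588. *Serpinb2* alone was called by DESeq2. *F9* and *Serpinf2* were at low levels. *F9* was at 0.225 to 2.51 CPM in Selp low and 0 to 0.272 CPM in Selp high paHSCs. *Serpinf2* was at 0.328 to 1.43 and 0 to 0.518 CPM. *F3*, tissue factor, was at 5.93 ± 3.31 CPM in yHSCs against 0.782 ± 1.03 in Selp low paHSCs (log2 fold change -2.87, SE 1.28, edgeR adjusted p = 0.465). In the same comparison *F10* gave 2.08 (SE 1.23) and *S100a10*, a plasminogen receptor subunit, 1.48 (SE 0.57). Selp high paHSCs over yHSCs gave 3.72 (SE 1.15) for *Serpinb2*, -2.70 (SE 1.84) for *Kng1* and 2.70 (SE 1.00) for *F10*, with edgeR adjusted p between 0.411 and 0.887. *Kng1* had a median of 0.371 CPM in yHSCs and was at most 0.724 CPM in Selp high paHSCs.

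Of 33 genes of granule formation and release, 32 were found and tested, 26 had a positive fold change between the fractions and the list median was 0.41. At an unadjusted p below 0.05 by edgeR, 9 were higher (6.88% of all genes). The Selp high libraries lay above all Selp low libraries for 12 (10.3% of all genes) and below them for 0. DESeq2 called 1 as higher (0.748% of all genes). *Sytl4* (2.51, SE 0.75), *Stx11* (1.73, SE 0.72) and *Rab27b* (1.34, SE 0.61), which act in granule docking and fusion, had the largest values, with edgeR adjusted p between 0.338 and 0.432. Over yHSCs, *Rab27b* gave 3.31 (SE 0.49, edgeR adjusted p = 0.0812) in Selp high and 2.03 (SE 0.48, edgeR adjusted p = 0.332) in Selp low paHSCs. *Slc35d3*, needed for dense granules, had a median of 65.3 CPM in yHSCs and 14.7 CPM in Selp low paHSCs (log2 fold change -2.02, SE 0.79, edgeR adjusted p = 0.408). Of the megakaryocyte markers, 11 of 11 tested genes had a positive fold change between the fractions, with a list median of 3.37, and DESeq2 called 4 as higher, against 0.748% of all genes.

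**Figure D4:**
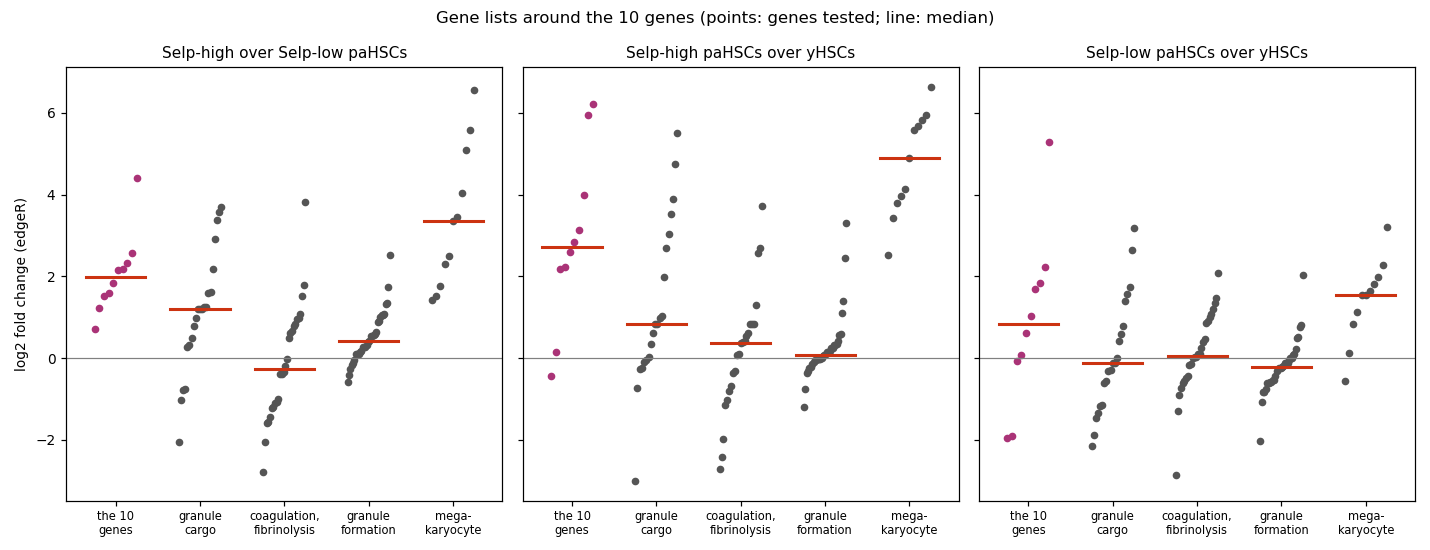
edgeR log2 fold changes of the tested genes of each list (points) with the list median (line), in the 3 comparisons. For Selp high over Selp low paHSCs the medians are 1.99 for the 10 genes, 1.20 for granule cargo and 3.37 for the megakaryocyte list. They are -0.26 for the coagulation list and 0.41 for granule formation.

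Across the 9 libraries the genes most like *Pf4* in log2 CPM, of 15758 protein-coding genes, were *Mfsd2b* (Pearson r = 0.98), *Robo3* (0.963) and *Rap1b* (0.962). For *Vwf* they were *Itgb3* (0.988), *Reep2* (0.987) and *Rbpms2* (0.986). Among the 10 genes themselves, *Ppbp* and *Pros1* were the most alike (0.932), *Mmrn1* and *Pros1* followed (0.916) and *Pf4* was most like *Serpine2* (0.894) and least like *Sparc* (-0.713). These correlations are descriptions over 9 libraries (n = 9) that share the groups.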

How the data were processed

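Per the study's methods and processing notes, the authors trimmed reads with fastp, aligned them with HISAT2 (2.2.1) to mm39 and counted genes with featureCounts (2.0.6). cDNA came from an ultra-low input kit. The deposited values are raw counts; for the annotation release and strand setting, nothing is given in the sources used here. The 10 genes and all lists were chosen with earlier results of these data known.

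In R 4.3.3, each pair of groups was fitted with edgeR 4.0.16 (TMM, filterByExpr, quasi-likelihood test, legacy setting), with Benjamini-Hochberg adjustment over all genes tested. Alternatives used DESeq2 1.42.0, limma 3.58.1, other scalings and filters, a replicate block and omitted libraries. Fold changes are log2; DEGs were genes with adjusted p up to 0.05 and a log2 fold change of 1 or more in size. A count of 0 allows up to 3 counts, which covers counting error only. Depth was 24866975 to 35375310 counts. P-values measure the spread between libraries, stated to be biological replicates.

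Residuals of libraries with the same replicate number correlated at 0.35, 0.381 and 0.405 for the paHSC fractions, all above the 0.1 taken as pairing, and at -0.187, -0.196 and 0.0238 (Selp high) and 0.103, 0.0514 and 0.0818 (Selp low) with yHSCs, which was not taken as pairing.

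Genes were named by a rule: all 10; from each list the 3 with the largest absolute change per comparison and those called; the CXC neighbors; the genes most like *Pf4* and *Vwf*; overlapping genes; and *Selp*. Megakaryocyte markers, *Cd48*, *Flt3*, *Cd34* and *Cdh5* were chosen from marker lists after their values were seen. *Esam* and *Tie1* were named as the most abundant endothelial markers. Motifs were searched in RefSeq promoters of GRCm38.p6, whose coordinates are not those of mm39. The steps were tested on simulated data, and figures used Python 3.11.15 with matplotlib 3.10.9.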

Additional observations from a re-analysis of the deposited data

How the results depend on the processing

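Between the paHSC fractions edgeR called 0 of the 10 genes, against 3 with no filter on low counts and 3 by DESeq2. With no filter, 78 of 43523 genes were called higher, and by DESeq2 0.748%. With each library left out edgeR called 0 of the 10. DESeq2 called 6 with the replicate block (4.33% of all genes higher) and 3 to 7 with a library left out (63 to 434 genes higher). For Selp high paHSCs over yHSCs, the 3 calls became 8 with no filter (330 of 41339 genes higher) and 6 by DESeq2 (1.75%). They became 5 by limma-voom with quality weights (174 of 20017) and 1 in 1 fit of all 9 libraries (17 of 22594). With the replicate block they became 0, and 0 to 3 with a library left out (0 to 30 genes higher). DESeq2 with a library left out called 5 to 7 (257 to 487 genes higher). For Selp low paHSCs over yHSCs, the count of 0 became 2 with no filter (290 of 43683 genes higher) and 2 by DESeq2 (1.99%). With a library left out, DESeq2 called 1 to 4 (82 to 1805 genes higher and 15 to 705 lower). DESeq2 fits with the block or without a library were added after the data were seen. With the yHSCs the replicate numbers were not taken as pairing.

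Some log2 fold changes changed sign, and the cause was not tested. With a library left out, edgeR gave -0.079 to 3.36 for *F5* between the fractions (DESeq2 -0.077 to 3.32). In Selp high paHSCs over yHSCs it gave -0.78 to 1.73 for *Thbs1* (DESeq2 -0.78 to 1.74) and -1.62 to 0.17 for *Sparc* (DESeq2 -1.63 to 0.12). In Selp low paHSCs over yHSCs it gave -0.15 to 0.34 for *Mmrn1* (DESeq2 -0.17 to 0.33), -0.72 to 1.67 for *F5* (DESeq2 -0.76 to 1.70) and -0.81 to 1.17 for *F13a1* (DESeq2 -0.71 to 1.06). limma-voom gave -1.95 for *Sparc* between the fractions (0.34 to 2.97 by edgeR with a library left out) and -0.13 for *F5* in Selp low paHSCs over yHSCs, and DESeq2 with the block gave -0.028 for *Mmrn1* there. With 3 libraries per group an exact permutation test of one gene cannot go below p = 0.1.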
